A study of Mus musculus with 6 samples.

Results

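The Gimap family consists of GTPases of immunity-associated proteins, guanine nucleotide binding proteins that are found mainly in lymphocytes and other hematopoietic cells. Its 8 members here, Gimap1, Gimap3, Gimap4, Gimap5, Gimap6, Gimap7, Gimap8 and Gimap9, were taken by their symbols and matched to Ensembl identifiers, and all 8 were among the 38293 genes with a read count. Gimap proteins share a GTP binding domain and sit on the membranes of organelles such as lysosomes, the endoplasmic reticulum and mitochondria, or in the cytosol. They are best known for setting the survival of T and B lymphocytes, and loss of Gimap5 in mice and rats causes lymphopenia and, in mice, also affects hematopoietic stem cells. hnRNP L is an RNA binding protein that acts in splicing and in the control of mRNA levels, and the comparison asked how the Gimap genes were expressed in cells in which its gene had been targeted.

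RNA-seq was done on Lin-cKit+ fetal liver (FL) cells, the fraction that lacks markers of mature lineages, carries the receptor cKit and contains hematopoietic stem and progenitor cells. The cells came from single E14.5 embryos of the C57BL/6 strain, 3 of them wt and 3 VavCre+ hnRNP L fl/fl, named hnRNP L deficient. VavCre is a transgene that expresses Cre recombinase from the promoter of Vav, which is active in cells of the hematopoietic system, so that both floxed Hnrnpl alleles are removed there. The labels give no Cre or floxed allele for the wt embryos and no litter or batch for any embryo. They name the tissue both as FL cells and as the whole embryo, and the sorting of Lin-cKit+ cells is taken from the methods of the study, in which the lineage cocktail for FL cells held no antibody against CD11b.

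Reads on genes summed to between 55952160 and 76157226 per library. Levels are given as CPM, in which the reads of a gene are divided by the effective size of the library, and always in the order of replicates 1, 2 and 3. Hnrnpl itself was at 552, 531 and 528 CPM in wt and at 242, 288 and 270 CPM in hnRNP L deficient libraries, and the difference passed the test (log2 fold change -1.01, edgeR adjusted p = 0.00724). Hnrnpl transcripts thus remained in every hnRNP L deficient library, and the exons inside the deleted part were not examined here. Kit was at 423 to 656 CPM in wt and 325 to 368 CPM in hnRNP L deficient libraries (named after its values were seen, as the receptor of the sort). One library stood apart from the others: the summed level of 10 myeloid markers was 8261 CPM in wt replicate 2, against 622 and 1562 CPM in the other wt libraries and 256 to 838 CPM in the hnRNP L deficient ones. Results on the Gimap genes are therefore also given without wt replicate 2. In bulk RNA, fewer cells of a type and less RNA per cell cannot be told apart.

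The 8 genes lie together on mouse chromosome 6 (GRCm38), in 123.6 kb between positions 48647234 and 48770851. Their order is Gimap8, Gimap9, Gimap4, Gimap6, Gimap7, Gimap1, Gimap5 and Gimap3, of which Gimap6 and Gimap3 are read from the reverse strand and the other 6 from the forward strand. The sequence before the annotated start is shown for the 4 genes that fell in hnRNP L deficient cells and for Gimap9, their neighbour in the cluster that was expressed most and did not pass the test. Each is 250 bases long, 5′ to 3′ on the strand of the gene, from RefSeq on GRCm38.p6. Capitals mark matches to any of 4 short motifs searched on both strands. Of these, GGAAGT is the core of many ETS factor sites, TGTGGT that of many RUNX sites and AGATAA that of many GATA sites, and CAGGTG is an E-box. The RUNX motif before Gimap1 lies on the opposite strand, where it reads ACCACA.
Gimap8, chr6:48646984-48647233, forward strand: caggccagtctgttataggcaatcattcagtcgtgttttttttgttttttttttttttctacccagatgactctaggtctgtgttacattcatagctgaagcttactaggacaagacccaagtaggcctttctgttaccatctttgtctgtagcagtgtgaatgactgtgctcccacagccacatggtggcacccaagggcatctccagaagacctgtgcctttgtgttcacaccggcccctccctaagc
Gimap9, chr6:48675885-48676134, forward strand: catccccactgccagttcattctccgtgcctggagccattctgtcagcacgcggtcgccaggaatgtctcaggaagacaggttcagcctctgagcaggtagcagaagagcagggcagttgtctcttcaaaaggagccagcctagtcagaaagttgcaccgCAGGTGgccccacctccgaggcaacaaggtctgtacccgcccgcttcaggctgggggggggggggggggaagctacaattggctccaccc
Gimap6, chr6:48708245-48708494, reverse strand: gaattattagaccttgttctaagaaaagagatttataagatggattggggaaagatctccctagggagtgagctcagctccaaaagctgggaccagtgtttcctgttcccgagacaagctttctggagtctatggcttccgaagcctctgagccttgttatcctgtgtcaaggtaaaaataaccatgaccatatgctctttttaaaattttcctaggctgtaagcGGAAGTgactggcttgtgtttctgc
Gimap1, chr6:48738797-48739046, forward strand: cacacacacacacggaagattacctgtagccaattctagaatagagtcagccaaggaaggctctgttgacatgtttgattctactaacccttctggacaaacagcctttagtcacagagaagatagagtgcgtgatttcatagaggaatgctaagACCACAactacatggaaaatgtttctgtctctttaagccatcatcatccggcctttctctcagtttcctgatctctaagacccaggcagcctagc
Gimap5, chr6:48745947-48746196, forward strand: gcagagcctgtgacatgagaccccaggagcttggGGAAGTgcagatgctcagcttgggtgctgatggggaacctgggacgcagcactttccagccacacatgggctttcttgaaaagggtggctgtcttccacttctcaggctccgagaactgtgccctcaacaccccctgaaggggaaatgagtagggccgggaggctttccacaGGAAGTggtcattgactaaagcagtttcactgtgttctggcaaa

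All 8 members were found among the RefSeq starts, and with a second start of Gimap8 they gave 9 windows. GGAAGT was found in 2 of these 9 windows, once before Gimap6 and at 2 places before Gimap5, and in 19.7% of the 32851 windows of all genes. TGTGGT was found in 3 of 9, those of Gimap1, Gimap4 and Gimap7, and in 14% of all windows. CAGGTG was found only before Gimap9, among the 9, and in 17.2% of all windows. AGATAA was in none of the 9 and in 9.99% of all windows. No motif of the 4 was thus common to the windows of the genes that fell, and the first Gimap8 window held none of them. The window of Gimap9 had the highest content of G and C of the 9, 61.2%, against 43.6% to 55.6% in the others. A match is a description of the letters and was not tested as a binding site, and the motifs were chosen with the sequences in view.

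Of the 8 members, 6 had enough reads to be tested, and 4 of these, Gimap8, Gimap6, Gimap5 and Gimap1, were lower in hnRNP L deficient than in wt cells at an adjusted p under 0.05. In hnRNP L deficient cells they were at 26.5%, 28.9%, 36.0% and 44.7% of their wt level. None was higher by edgeR, with 0 higher at an unadjusted p under 0.05 and 0 higher by DESeq2 or limma-voom. Among all 14396 genes tested, 1418 were called lower, which is 9.85%, and 1341 were called higher, which is 9.32%. All 6 tested members had every hnRNP L deficient library below every wt library, which held for 22.7% of all genes. The median log2 fold change of the 6 was -1.60, and that of all genes -0.03. Gimap7 and Gimap3 were left out of the test by the filter on low counts.

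**Figure D1:**
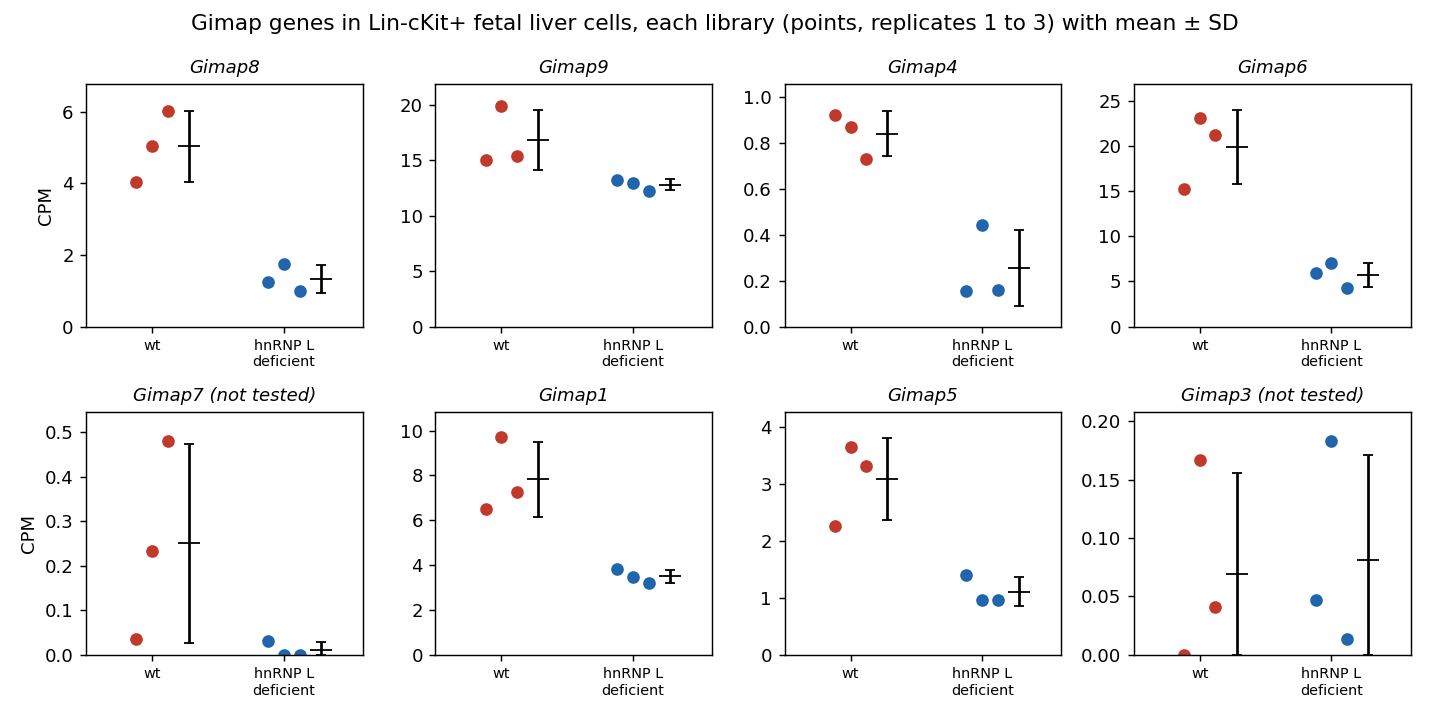
CPM of each Gimap gene in the 3 wt (red) and 3 hnRNP L deficient (blue) libraries, with the mean and SD beside the points (n = 3 each, bars stopped at 0, one linear scale per gene). In the 6 tested genes all hnRNP L deficient points lie below all wt points, with the smallest gap for Gimap9, and Gimap3 overlaps between groups.

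Gimap5, a lysosomal protein required for the survival of lymphocytes and of hematopoietic stem cells, was at 2.27, 3.65 and 3.32 CPM in the wt libraries. In the hnRNP L deficient libraries it was at 1.40, 0.964 and 0.965 CPM. The lowest wt library was thus 1.62 times the highest hnRNP L deficient one, and the groups did not overlap. Means were 3.08 ± 0.722 CPM in wt and 1.11 ± 0.250 CPM in hnRNP L deficient cells (SD, n = 3 each), and Gimap5 fell by 1.47 on the log2 scale (SE 0.290, edgeR adjusted p = 0.0214).

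Gimap1, which is needed for the formation of mature T and B cells, was at 6.52, 9.71 and 7.24 CPM in wt and at 3.81, 3.49 and 3.20 CPM in hnRNP L deficient libraries. The hnRNP L deficient libraries lay close together and all below the wt libraries, whose highest value was that of replicate 2. The means were 7.82 ± 1.67 and 3.50 ± 0.302 CPM (SD, n = 3 each), and the log2 fold change was -1.16 (SE 0.204, edgeR adjusted p = 0.0170). Gimap1 fell least among the 4 genes that passed the test.

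Gimap8, the longest protein of the family and one that carries several GTP binding domains, was at 4.03, 5.04 and 6.03 CPM in wt libraries. It was at 1.26, 1.74 and 0.991 CPM in hnRNP L deficient libraries, all below the lowest wt value. With means of 5.03 ± 0.998 and 1.33 ± 0.382 CPM (SD, n = 3 each), it was 3.78-fold higher in wt, and its log2 fold change was -1.92 (SE 0.286, edgeR adjusted p = 0.0142), the largest of the tested members.

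Gimap6 binds a member of the Gabarap family of ubiquitin-like proteins, which act in autophagy, and it was the most abundant member in wt by CPM together with Gimap9. Its level was 15.3, 23.1 and 21.3 CPM in wt and 5.90, 7.01 and 4.31 CPM in hnRNP L deficient libraries. The groups were separated by a factor of 2.18 between the lowest wt and the highest hnRNP L deficient library. Means were 19.9 ± 4.10 and 5.74 ± 1.35 CPM (SD, n = 3 each), and the log2 fold change was -1.79 (SE 0.234, edgeR adjusted p = 0.0125).

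Gimap4, a cytosolic member that has been linked to the execution of apoptosis in T cells, was expressed at a low level in these cells. It had 51, 52 and 53 reads in wt and 10, 29 and 12 reads in hnRNP L deficient libraries, or 0.918, 0.867 and 0.729 CPM against 0.155, 0.444 and 0.161 CPM. The groups did not overlap, but hnRNP L deficient replicate 2 was well above the other 2 of its group. The log2 fold change was -1.72 with a 95% interval from -2.89 to -0.56, and the edgeR adjusted p of 0.0508 missed the threshold. The size of this difference was close to that of Gimap6 and Gimap8, and its interval was wider.

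Gimap9 was the member that differed least. It was at 15.0, 19.9 and 15.4 CPM in wt and at 13.2, 13.0 and 12.2 CPM in hnRNP L deficient libraries. All hnRNP L deficient values were below all wt values, but by a factor of only 1.14 between the nearest libraries of the groups. The means were 16.8 ± 2.71 and 12.8 ± 0.510 CPM (SD, n = 3 each), so that hnRNP L deficient cells had 76.3% of the wt level. The log2 fold change of -0.39 (95% interval -0.73 to -0.06, SE 0.142) did not pass the test (edgeR adjusted p = 0.0912).

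Gimap7 and Gimap3 were close to the limit of detection, where 3 reads correspond to between 0.0394 and 0.0536 CPM. Gimap7 had 2, 14 and 35 reads in wt and 2, 0 and 0 reads in hnRNP L deficient libraries. Only wt replicates 2 and 3 were above 3 reads, and wt replicate 1 had as many reads as hnRNP L deficient replicate 1. Without the filter on low counts Gimap7 had an adjusted p of 0.0596 in edgeR, and it was called lower by DESeq2 (adjusted p = 0.0252). Its reads were almost all in wt libraries, so it could be called lower or not at all. Gimap3, which is closely related to Gimap5, had 0, 10 and 3 reads in wt and 3, 12 and 1 reads in hnRNP L deficient libraries, which overlapped (two-sided exact permutation test, p = 0.7, n = 3 each). A difference of Gimap3 was not detectable at this depth.

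The exact permutation test of a single gene gave p = 0.1 for each of the 6 tested members, the smallest value that 3 libraries against 3 can give. Without wt replicate 2, the myeloid-rich library, the same 4 members were called lower, with log2 fold changes of -1.92 for Gimap8, -1.67 for Gimap6, -1.33 for Gimap5 and -0.98 for Gimap1 (edgeR adjusted p = 0.00805, 0.00580, 0.0201 and 0.0101). Without wt replicate 3, or without hnRNP L deficient replicate 1, 2 or 3, 0 members passed the threshold in edgeR, and 0 to 2 of all genes were then called lower. In these fits the log2 fold changes of all 6 members stayed negative, and those of Gimap6 lay between -1.94 and -1.62 with adjusted p-values between 0.0530 and 0.0867.

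**Figure D2:**
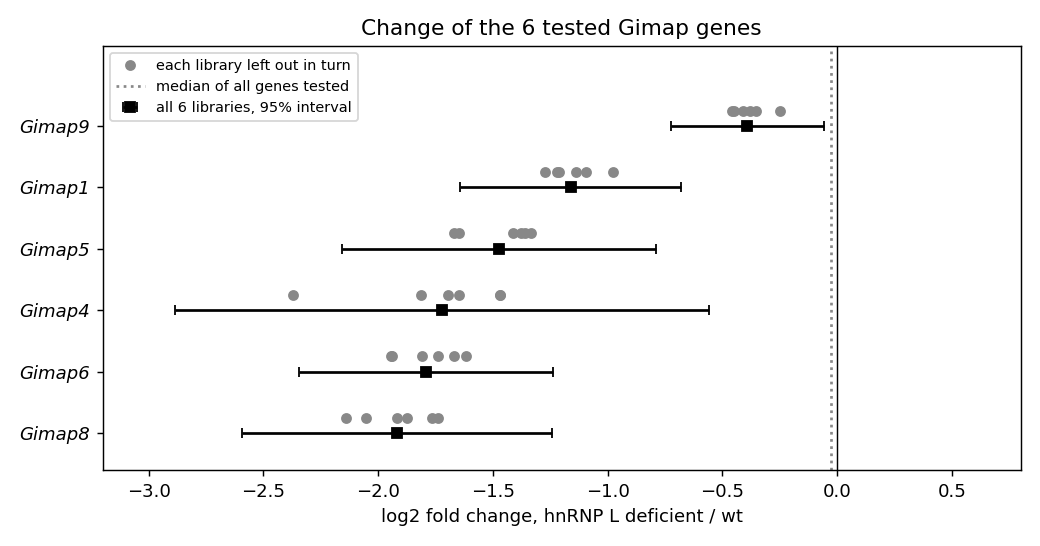
Log2 fold change (hnRNP L deficient over wt) of the 6 tested Gimap genes from all 6 libraries (squares, with 95% interval) and from 5 libraries, leaving out a different one each time (grey points), beside the median of all genes tested (dotted line, -0.03). Estimates stay below 0 in each fit, from -2.37 for Gimap4 without hnRNP L deficient replicate 2 to -0.25 for Gimap9 without wt replicate 2.

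For levels between genes, reads were divided by the length of the exons of each gene (RPKM). By RPKM the order in wt cells was Gimap9 with 10.2 ± 1.65, Gimap6 with 5.69 ± 1.17, Gimap1 with 2.54 ± 0.544, Gimap8 with 1.36 ± 0.270, Gimap5 with 0.742 ± 0.174, Gimap4 with 0.456 ± 0.0531, Gimap7 with 0.108 ± 0.0961 and Gimap3 with 0.0269 ± 0.0337 (mean ± SD, n = 3). Each gene was above the next in this order in every pair of wt libraries, except for Gimap7 and Gimap3, whose ranges overlapped. In hnRNP L deficient cells Gimap9 stood alone at the top with 7.79 ± 0.310 RPKM, followed by Gimap6 with 1.64 ± 0.387 and Gimap1 with 1.14 ± 0.0982. There the ranges of Gimap6 and Gimap1 met (1.23 to 2.005 and 1.04 to 1.24 RPKM), and so did those of Gimap8 and Gimap5 (0.268 to 0.471 and 0.232 to 0.337 RPKM) and of Gimap5 and Gimap4, which reached from 0.0845 to 0.242 RPKM. The order of the 6 most abundant members was the same in both groups.

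How far the members differed among themselves in their response was compared within each library. Gimap9 took 34.1%, 31.7% and 28.3% of the reads on the 8 Gimap genes in wt and 51.1%, 48.4% and 55.9% in hnRNP L deficient libraries. Gimap6 took 34.6%, 36.9% and 39.0% in wt and 22.9%, 26.1% and 19.7% in hnRNP L deficient libraries. Gimap6 was thus the largest contributor of reads in the wt libraries, although in wt replicate 1 the intervals of the 2 shares overlapped, and Gimap9 in the hnRNP L deficient libraries. The share of Gimap8 went from 9.15%, 8.04% and 11.1% to 4.88%, 6.51% and 4.53%, and the share of Gimap1 overlapped between the groups (13.3% to 15.5% in wt and 13.0% to 14.8% in hnRNP L deficient libraries). In exact binomial 95% intervals, which cover counting error only, the highest share of Gimap9 in wt reached 36.0% and the lowest in hnRNP L deficient cells went down to 46.0%. The ratio to Gimap9 in the same library differed on the log2 scale, as hnRNP L deficient minus wt, by -1.56 for Gimap8, -1.52 for Gimap4, -1.42 for Gimap6, -1.09 for Gimap5 and -0.76 for Gimap1. The ratios of these 5 genes did not overlap between groups and do not depend on the scaling between libraries. Gimap9 was taken as the reference after its values were seen, as the member that differed least, so the ratios describe the same difference and carry no test.

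**Figure D3:**
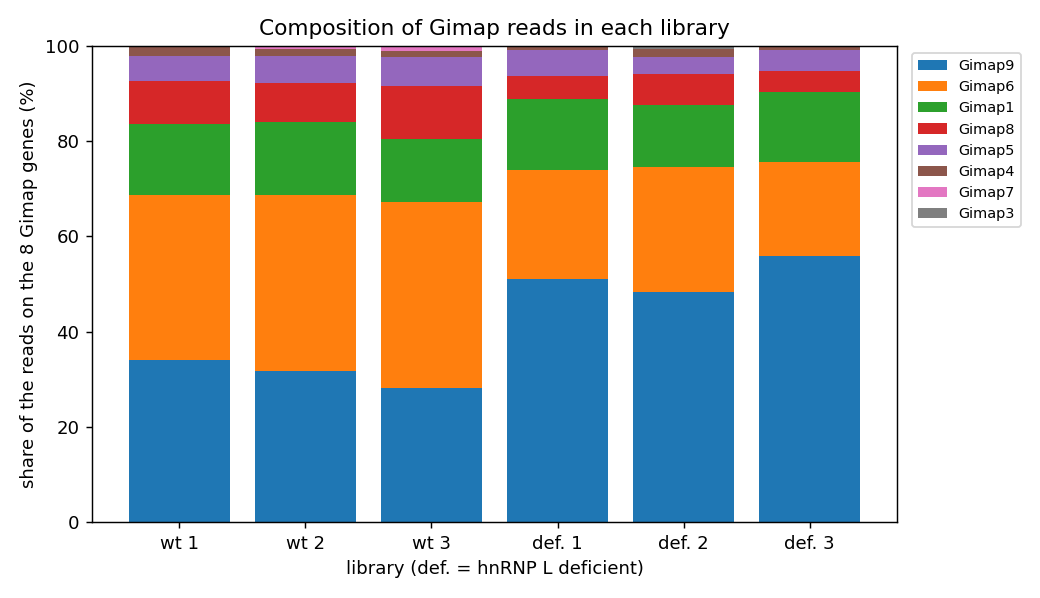
Share in percent of the reads on the 8 Gimap genes that each gene took, as stacked bars for 3 wt and 3 hnRNP L deficient libraries (def.). Gimap9 (blue, lowest segment) widens from 28.3% to 34.1% in wt to 48.4% to 55.9% in hnRNP L deficient libraries, and Gimap6 (orange) narrows.

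Summed over the family, the level was 44.1, 62.7 and 54.5 CPM in wt and 25.8, 26.8 and 21.9 CPM in hnRNP L deficient libraries. The means were 53.7 ± 9.32 and 24.8 ± 2.61 CPM (SD, n = 3 each), and without Gimap9 they were 37.0 ± 7.11 and 12.02 ± 2.15 CPM. Among the wt libraries the highest sum was 1.42 times the lowest, while the sum of the myeloid markers differed by a factor of 13.3 between the same libraries.

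Exon bins, the pieces into which exons are divided where transcripts differ, were counted in 5 libraries, all but hnRNP L deficient replicate 1, whose bins were not analysed here. Gimap3, Gimap4, Gimap6, Gimap8 and Gimap9 had units of their own, and Gimap1, Gimap7 and Gimap5 were merged into one unit of 22 bins, so that usage in this unit mixes 3 genes. Of the 65 bins of the members 29 had a mean of at least 10 reads, and 0 of these were called by diffSpliceDGE of edgeR, with 1 at an unadjusted p under 0.05 and likewise 0 called and 1 at an unadjusted p under 0.05 by limma. Over all genes, 51 of 176996 bins were called, which is 0.0288%, and 1802 had an unadjusted p under 0.05.

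The bins gave the level along each gene. All 5 bins of Gimap9 were at 63.3% to 85.2% of their wt level in hnRNP L deficient cells, the 7 tested bins of Gimap6 at 13.9% to 42.1% and the 4 tested bins of Gimap8 at 20.01% to 38.3%. The lower level of Gimap6 and Gimap8 was thus seen in every tested bin of these genes, and each of them was below the lowest bin of Gimap9. The bin with an unadjusted p of 0.000313 (diffSpliceDGE of edgeR, adjusted p = 0.462) was the third of the merged unit. It held 2, 14 and 35 reads in wt and 0 in hnRNP L deficient replicates 2 and 3, the same numbers as the gene count of Gimap7. It thus shows the level of Gimap7 beside Gimap1 and Gimap5. This bin passed the filter on reads through the wt libraries, so it could be called lower or not at all.

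Overlaps within the cluster limit some counts. In the GENCODE M21 annotation the readthrough gene Gm28053, which is not among the counted genes, overlaps Gimap7, Gimap1 and Gimap5, and the antisense gene Gimap1os overlaps Gimap1. Gimap1os (named after its values were seen) had 15, 80 and 39 reads in wt and 17, 17 and 16 reads in hnRNP L deficient libraries, and did not pass the test (log2 fold change -1.53, edgeR adjusted p = 0.114). The libraries kept the strand, but the strand option of the counting is not given in the sources used here, so reads of Gimap1 and Gimap1os may not be told apart. In their transcripts, Gimap5 and Gimap3 share 190 windows of 50 bases, 4.53% of those of Gimap5 and 7.52% of those of Gimap3. Reads that lie wholly in these windows may not be placed on one of the genes, which was not examined here. The other 6 members share no such window with each other or with this pair.

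Within 500 kb of the cluster 22 other protein-coding genes are annotated, of which 11 were tested. Of these, 2 were called lower, against 9.85% of all genes, and 0 were called higher by edgeR. There were 5 lower and 0 higher at an unadjusted p under 0.05 and 4 lower and 0 higher by DESeq2. DESeq2 called 2227 of all genes lower, and their share at an unadjusted p under 0.05 was not counted. Both neighbours called by edgeR code for small transmembrane proteins and lie beyond the end of the cluster at Gimap3. Tmem176b, 63.0 kb after it, was at 12.3, 29.8 and 19.2 CPM in wt and at 5.41, 5.51 and 4.76 CPM in hnRNP L deficient libraries, and fell by 1.97 on the log2 scale (edgeR adjusted p = 0.0147). Tmem176a, 70.1 kb after it, was at 3.35, 11.5 and 5.20 CPM in wt and at 2.14, 2.08 and 1.96 CPM in hnRNP L deficient libraries (log2 fold change -1.70, edgeR adjusted p = 0.0382). In both genes the groups did not overlap and wt replicate 2 was the highest library. AI854703, the nearest gene on the other side at 13.5 kb, overlapped between groups with 3.40 to 5.13 CPM in wt and 3.83 to 5.19 CPM in hnRNP L deficient libraries, and its fitted change of -0.06 did not pass the test (edgeR adjusted p = 0.876). The median log2 fold change of the 11 neighbours was -0.24.

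**Figure D4:**
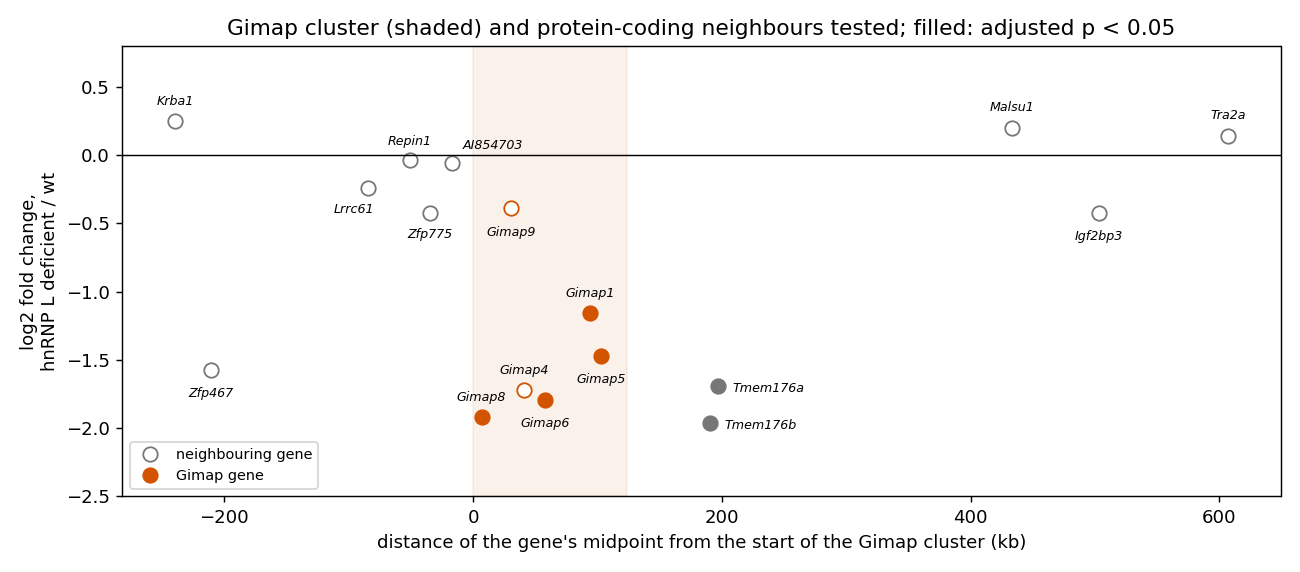
Log2 fold change (hnRNP L deficient over wt) of the tested Gimap genes (orange) and of the 11 tested neighbours (grey) against the distance in kb of their midpoint from the start of the cluster, with the cluster shaded and genes with an adjusted p under 0.05 filled. Gimap9 at -0.39 lies between Gimap8 at -1.92 and Gimap4 at -1.72, and beside the cluster Tmem176b and Tmem176a are filled.

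Among 11614 other genes with a mean of at least 1 CPM, those with a profile over the 6 libraries most like the mean profile of the 6 tested members included Fggy, Hlf and Fam221a. Their root mean square differences from it were 0.0756, 0.0907 and 0.1003 on the log2 scale, smaller than those of the members themselves, which ran from 0.169 for Gimap1 to 0.496 for Gimap9. Hlf, a transcription factor of hematopoietic stem cells, was at 16.5, 26.8 and 22.1 CPM in wt and at 8.25, 9.90 and 6.67 CPM in hnRNP L deficient libraries. These genes were picked for their likeness, which is a description of 6 libraries.

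A list of 14 genes around the known functions of the family, namely the Gabarap and Lc3 proteins of autophagy, the Bcl2 family, Gsk3b and Ctnnb1, was measured in the same fit. All 14 were tested, 1 was called lower and 1 higher, against 9.85% and 9.32% of all genes, with a median log2 fold change of -0.09. The list as a whole thus gave no more calls than all genes did in the edgeR fit. DESeq2 and limma-voom each called 4 lower, while of all genes they called 2227 and 2751 lower, against 1418 in the edgeR fit. Without wt replicate 1 edgeR called 3 of the list and 2479 of all genes lower. Without wt replicate 2 it called 3 and 1855 lower. Without wt replicate 3, or without any one hnRNP L deficient replicate, it called 0 of the list lower. Bcl2, which blocks apoptosis, was at 8.70, 16.4 and 12.7 CPM in wt and at 4.77, 6.67 and 5.45 CPM in hnRNP L deficient libraries, and fell by 1.16 on the log2 scale (SE 0.257, edgeR adjusted p = 0.0271). Bax, which promotes it, was at 71.5, 70.5 and 72.8 CPM in wt and at 129, 122 and 128 CPM in hnRNP L deficient libraries, and rose by 0.82 (SE 0.0623, edgeR adjusted p = 0.00578). In neither gene did the groups overlap. The study itself measured Bcl2 mRNA by real-time PCR in FL and bone marrow cells depleted of lineage markers. That fraction is not the Lin-cKit+ one, and the study found no evidence of a change there. Of the 5 Gabarap and Lc3 genes none passed the test in edgeR. Gabarap was at 87.2, 138 and 102 CPM in wt and at 73.9, 80.6 and 80.3 CPM in hnRNP L deficient libraries (log2 fold change -0.48, edgeR adjusted p = 0.0773), and Map1lc3b at 49.1, 67.2 and 60.4 CPM against 44.5, 47.4 and 44.4 CPM (-0.37, adjusted p = 0.0653). In both the groups did not overlap, while in Gabarapl1, Gabarapl2 and Map1lc3a they did (these 5 named after their values were seen).

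Genes that act in early lymphoid cells were also measured, since the family is known from lymphocytes. Of 12 transcriptional regulators of lymphoid development 10 were tested and 3 were called lower (Satb1, Runx1 and Notch1, the last named after its values were seen), with 0 higher by edgeR, 0 higher at an unadjusted p under 0.05 and 0 higher by DESeq2. Among all genes 9.85% were called lower and 9.32% higher. Satb1, a chromatin organizer of lymphoid cells, was at 18.8, 48.6 and 29.7 CPM in wt and at 4.13, 5.43 and 4.11 CPM in hnRNP L deficient libraries (log2 fold change -2.83, edgeR adjusted p = 0.0125). Runx1, a transcription factor of hematopoietic stem cells, went from 76.7, 111 and 87.4 CPM in wt to 51.8, 46.5 and 44.6 CPM (log2 fold change -0.95, edgeR adjusted p = 0.0142). The groups overlapped in neither gene. Both were named for their small adjusted p-values, and 22.7% of all genes had every hnRNP L deficient library below every wt library. Tcf3 (log2 fold change 0.08, edgeR adjusted p = 0.716) and Tcf12 (0.04, adjusted p = 0.816) had positive changes, and 8 of the 10 had a negative one. Tcf3 and Tcf12 were named after their values were seen.

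Of 9 receptors and signaling genes of lymphoid precursors 8 were tested and 4 were called lower, against 9.85% of all genes. Again 0 were higher by edgeR, at an unadjusted p under 0.05 or by DESeq2. Flt3, the cytokine receptor of early lymphoid progenitors, was at 17.8, 44.0 and 28.2 CPM in wt and at 2.86, 3.40 and 2.56 CPM in hnRNP L deficient libraries (log2 fold change -3.35, edgeR adjusted p = 0.00985). Ccr9, a chemokine receptor of cells that seed the thymus, was at 0.486, 2.53 and 1.06 CPM in wt and at 0.0155, 0 and 0 CPM in hnRNP L deficient libraries, at which level no fold is given (edgeR adjusted p = 0.0138). The other 2 were Il7r and Jak3 (named after their values were seen). Ccr9 and Il7r were near the limit of detection in hnRNP L deficient libraries and passed the filter on low counts through the wt libraries. They could thus be called lower or not at all. With a filter of at least 1 CPM in 3 libraries, 6 genes of this list were tested and 2 were called lower. The groups did not overlap in either of Flt3 and Ccr9. Il2rg (log2 fold change 0.01, edgeR adjusted p = 0.973) and Jak1 (0.09, adjusted p = 0.408) had positive changes, and 6 of the 8 had a negative one. Il2rg and Jak1 were named after their values were seen.

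Markers of mature lymphoid cells, which could carry Gimap transcripts, were measured in the same libraries. Of 10 T cell markers 4 were tested and 0 were called by edgeR, with 1 lower at an unadjusted p under 0.05 and 1 lower by DESeq2. Their summed level was 2.86 to 6.29 CPM in wt and 1.97 to 2.22 CPM in hnRNP L deficient libraries, and Cd2 and Trac were at 0 in all 6 libraries while Cd3e and Cd3d were at or below 0.0667 CPM (these 4 named after their values were seen, as defining markers). Lck was at 1.98, 2.45 and 1.597 CPM in wt and at 1.32, 1.19 and 1.09 CPM in hnRNP L deficient libraries, and Cd3g at 0.385 to 0.634 CPM and 0.249 to 0.335 CPM, so that neither overlapped between groups. Cd28 was at 0.0540, 2.22 and 0.908 CPM in wt and at 0.0621, 0.0918 and 0.0670 CPM in hnRNP L deficient libraries. Cd247 went the other way without overlap, at 0.162, 0.167 and 0.206 CPM in wt and at 0.280, 0.260 and 0.241 CPM in hnRNP L deficient libraries. Its log2 fold change of 0.53 did not pass the test (edgeR adjusted p = 0.367). Thy1 overlapped between groups (Lck, Cd3g, Cd28, Cd247 and Thy1 were named after their values were seen). Of 8 NK and innate lymphoid markers 1 was tested and it was not called (0 at an unadjusted p under 0.05, 0 by DESeq2). Their sums were 3.31 to 50.2 CPM in wt and 2.67 to 5.57 CPM in hnRNP L deficient libraries, with Ncr1 at 0 throughout and most of the sum from Nkg7, which was at 3.19, 49.8 and 7.71 CPM in wt and at 2.55, 5.37 and 5.26 CPM in hnRNP L deficient libraries (both named after their values were seen).

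Of 12 B cell markers 6 were tested and 3 were called lower, against 9.85% of all genes. Among these 3 were Rag2, of the recombinase of lymphocyte receptor genes, and Blnk, an adaptor of B cell receptor signaling. Rag2 was at 0.972, 2.95 and 1.53 CPM in wt and at 0.109, 0.0918 and 0.188 CPM in hnRNP L deficient libraries (log2 fold change -3.78, edgeR adjusted p = 0.0138). Blnk was at 0.576, 0.467 and 0.495 CPM in wt and at 0.0621, 0.0918 and 0.121 CPM in hnRNP L deficient libraries (log2 fold change -2.45, edgeR adjusted p = 0.0173). Both were near the limit of detection in hnRNP L deficient cells and did not overlap between groups. They passed the filter on low counts through the wt libraries, so they could be called lower or not at all. With a filter of at least 1 CPM in 3 libraries, 1 B cell marker was tested and 0 were called lower. The sums of the list were 7.11 to 29.1 CPM in wt and 2.07 to 3.53 CPM in hnRNP L deficient libraries, and Ms4a1 and Dntt were at 0 in all libraries (named after their values were seen). The part of lymphoid cells in the lower Gimap levels was not tested.

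Of 10 stem cell markers, all tested, 5 were called lower, against 9.85% of all genes, and 0 higher by edgeR (0 higher at an unadjusted p under 0.05, 0 by DESeq2). Their sums did not overlap, with 630 to 925 CPM in wt and 441 to 486 CPM in hnRNP L deficient libraries. Most of each sum came from Kit, the receptor of the sort, at 423 to 656 CPM in wt and 325 to 368 CPM in hnRNP L deficient libraries. Meis1, a homeobox factor of stem cells, was at 21.96, 27.7 and 20.5 CPM in wt and at 12.4, 10.99 and 10.03 CPM in hnRNP L deficient libraries (log2 fold change -1.07, edgeR adjusted p = 0.0138). The groups did not overlap in Meis1. Slamf1 went the other way without overlap, at 1.75 to 3.25 CPM in wt and 3.66 to 4.43 CPM in hnRNP L deficient libraries. Its log2 fold change of 0.54 did not pass the test (edgeR adjusted p = 0.198). Procr also had a positive log2 fold change (0.46, edgeR adjusted p = 0.513), and 8 of the 10 had a negative one (Slamf1 and Procr were named after their values were seen).

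Endothelial cells also express several Gimap genes. Of 12 endothelial markers 11 were tested and 3 were called lower, against 9.85% of all genes. By edgeR 0 were higher, with 1 higher at an unadjusted p under 0.05 and 1 higher by DESeq2. The sums of the list overlapped (111 to 159 CPM in wt, 111 to 119 CPM in hnRNP L deficient libraries). Emcn was at 1.51, 1.92 and 1.54 CPM in wt and at 0.481, 0.581 and 0.335 CPM in hnRNP L deficient libraries (log2 fold change -1.83, edgeR adjusted p = 0.0168). Pecam1, which hematopoietic cells also express, was at 13.5, 43.3 and 18.6 CPM in wt and at 6.27, 5.60 and 6.10 CPM (log2 fold change -2.07, edgeR adjusted p = 0.0263). The groups overlapped in neither of these genes. Egfl7, the most abundant of the list by CPM, went the other way without overlap, at 59.6, 65.2 and 68.8 CPM in wt and at 77.1, 78.5 and 75.7 CPM in hnRNP L deficient libraries. Its log2 fold change of 0.26 did not pass the test (edgeR adjusted p = 0.0525). Plvap also had a positive log2 fold change (0.23, edgeR adjusted p = 0.436), and 9 of the 11 had a negative one (Egfl7 and Plvap were named after their values were seen).

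Hepatocyte markers, from the tissue around the sorted cells, had sums that did not overlap, with 116 to 240 CPM in wt and 21.9 to 74.3 CPM in hnRNP L deficient libraries. Against 9.85% of all genes, 2 of these 8 were called lower, Trf (log2 fold change -1.67, edgeR adjusted p = 0.0486) and Ttr (-1.69, adjusted p = 0.0492), and 0 higher. At an unadjusted p under 0.05 there were 6 lower and 0 higher, by DESeq2 7 lower and 0 higher and by limma-voom 5 lower and 0 higher. All 8 had a negative log2 fold change. The 9.85% holds for the edgeR adjusted p only. Of all genes, DESeq2 called 2227 and limma-voom 2751 lower, and the share at an unadjusted p under 0.05 was not counted. Of 10 myeloid markers 1 was called lower, against 9.85% of all genes. It was Csf1r (log2 fold change -3.24, edgeR adjusted p = 0.0389), and without wt replicate 2 there were 3 called lower. DESeq2 and limma-voom also each called 3 of these markers lower. All 10 had a negative log2 fold change, with a median of -2.49. The sums of 10 erythroid markers overlapped, with 2225 to 2624 CPM in wt and 1982 to 2860 CPM in hnRNP L deficient libraries. Among 8 megakaryocyte markers Gp1ba (log2 fold change 1.16, edgeR adjusted p = 0.0202) and Gp5 (1.04, adjusted p = 0.0277) rose, against 9.32% of all genes, and 1 was called lower. Their sums overlapped, with 97.3 to 137 CPM in wt and 101 to 142 CPM in hnRNP L deficient libraries. The part of these cell types in the lower Gimap levels was not tested. Among the wt libraries the summed Gimap level was highest in replicate 2 and lowest in replicate 1, as was the sum of the myeloid markers. The sums of the T cell, B cell, NK, endothelial and megakaryocyte markers and of the partner list had the same order.

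**Figure D5:**
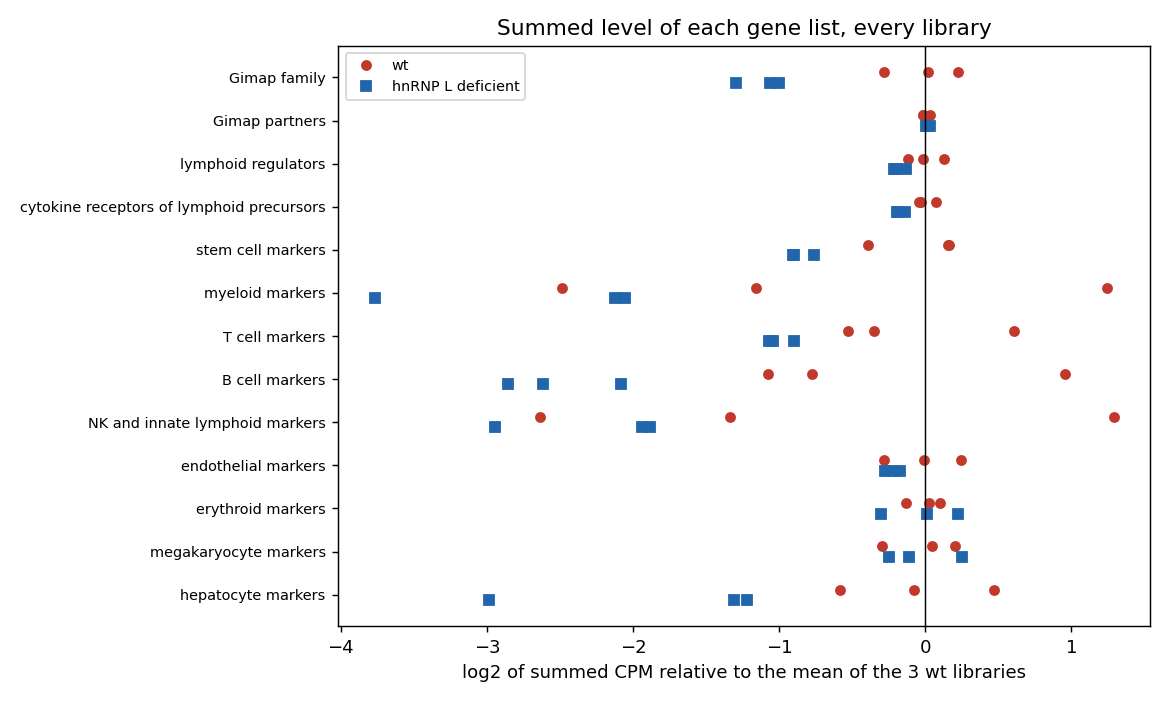
Log2 of the summed CPM of the Gimap family and of 12 gene lists in each library, relative to the mean of the 3 wt libraries (circles wt, squares hnRNP L deficient). The Gimap family, the stem cell, T cell, B cell and hepatocyte markers and the lymphoid regulators and receptors do not overlap between groups, while the partner, myeloid, NK, endothelial, erythroid and megakaryocyte lists do.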

How the data were processed

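RNA-seq of Lin-cKit+ FL cells from 3 wt and 3 hnRNP L deficient embryos was analysed from the read counts per gene and per exon bin that the authors deposited without normalization. According to the methods of the study and the submitters' processing notes, reads of stranded libraries were aligned to GRCm38 with TopHat2 2.0.10, processed with SAMtools and counted with HTSeq. The Ensembl release and the counting options are not given in the sources used here. Of the entries tallied in the counting, between 39.8% and 44.7% were marked as not uniquely aligned and stayed out of the gene counts and library sizes. Whether a read with several alignments was entered more than once is not given, so the share of reads may be lower.

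Gene counts were tested with edgeR 4.0.16 in R 4.3.3 (TMM factors, default expression filter, quasi-likelihood test with robust estimation, Benjamini-Hochberg adjustment over 14396 genes, threshold 0.05). CPM are counts scaled by the normalized library size, SE is the log2 fold change over the square root of F, and RPKM used GENCODE M21 exon lengths. Exact permutation tests used log2 of CPM plus 0.1. Exon bins were tested with diffSpliceDGE. Between 2 libraries of a group, chi-square per gene was at least 19.6, so no library repeated another. p-values measure the spread between single embryos.

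Alternatives were DESeq2 1.42.0, voom of limma 3.58.1 with sample weights, RLE factors, total counts, other filters, no robust estimation, a window of 250 kb and leaving out each library. DESeq2 without wt replicate 2 was added after the data were seen. The edgeR fit of genes and the diffSpliceDGE fit of exon bins were also run on simulated data, and the other steps were not. The members, the 12 gene lists (123 symbols) and the tests were chosen with earlier results of these data known. Genes named by rule were all members, the 2 called genes of each list with the smallest adjusted p, the nearest and the called neighbours, the 5 genes with the most similar profile, and Hnrnpl. Some genes that this rule names are not reported here.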

Additional observations from a re-analysis of the deposited data

How the results depend on the processing

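The log2 fold changes of the 6 tested Gimap genes were negative in every alternative that gave a value. Gimap8, Gimap6, Gimap5 and Gimap1 passed the threshold in all 7 other settings that kept the 6 libraries, Gimap4 in 3 of the 6 that tested it and Gimap9 with limma-voom only. The number of members called lower, 4, was 6 with DESeq2 (with Gimap7 and Gimap4) and 6 with limma-voom (with Gimap4 and Gimap9), and 0 to 5 with each library left out in turn. It was 0 without wt replicate 3 or without any one of the hnRNP L deficient libraries. For all genes, 1418 were lower, with 2227 by DESeq2, 2751 by limma-voom, 2197 by DESeq2 without wt replicate 2 (chosen after seeing the data) and 0 to 2479 with a library left out, and 1341 were higher, with 2537 by limma-voom, 2219 by DESeq2 without wt replicate 2 and 5 to 2312 with a library left out. With total counts in place of TMM, 62.2% of the called genes were lower (1751 lower and 1066 higher) in place of 51.4%, and the median of all genes moved by -0.071. Of the genes of the lists 24 were lower, with 43 by DESeq2, 41 by limma-voom, 38 by DESeq2 without wt replicate 2 and 0 to 37 with a library left out, and 3 were higher, with 5 by limma-voom and 0 to 4 with a library left out. Of the neighbours 2 were lower, with 4 by DESeq2, 4 by limma-voom, 4 by DESeq2 without wt replicate 2 and 0 to 3 with a library left out, and 0 were higher, with 2 by limma-voom. No exon bin of the members was called in any alternative. The cause of these differences was not tested, and with a library left out fewer samples were tested. No paired analysis was possible because the labels tie no wt embryo to an hnRNP L deficient one by a litter, batch or shared number, and the replicate numbers used here only follow the order of the samples. Depth limits Gimap7 and Gimap3, and Gimap7 could be called lower or not at all. Gimap4 had only 10 to 53 reads.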
